A study of Homo sapiens with 2 samples.

Results

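Chromosome 3 carried 1003 of the 10342 peaks in a ChIP-seq list made in MDA-MB-231, a cell line established from a human breast cancer. The members were all peaks that the list places on this chromosome, divided into a short and a long arm at a centromere position of 91 Mb. Within it, 3 segments were described, namely the gene-dense segment from 45 to 55 Mb, the gene-poor segment from 76 to 88 Mb, and the segment from 168 to 190 Mb that holds SOX2 and TP63. The list came from 1 library of wild-type cells precipitated with an antibody against brachyury, according to the methods of the study, and 1 input library of the same cells made without antibody. The label of the first library names no antibody, and neither library had a replicate, so no spread between samples can be given. The list gives no read totals, and the sequencing depth of both libraries is unknown. Intervals below are given at a confidence of 95% and cover counting error only, because peaks of 1 list are not replicates.

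Brachyury belongs to the T-box transcription factors and specifies mesoderm and the notochord in the embryo, and in carcinoma cells it is known for its link to epithelial-mesenchymal transition. T-box proteins bind DNA through a conserved domain that recognises a short motif. A ChIP-seq peak is a stretch where precipitated fragments pile up above the level expected from a background model, and MACS, the peak caller of this list, takes that level from the whole genome or, where it is higher, from reads of the input around the peak. Positions are given in hg19 (GRCh37), the build named in the labels, with bases counted from 1. No peak was assigned to a gene, because an annotation in this build was not used here.

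The short arm was more densely covered with peaks than the long arm. It carried 527 peaks over 90.9 Mb, or 5.80 per Mb (interval 5.32 to 6.32). The long arm carried 476 peaks over 107 Mb, or 4.45 per Mb (4.06 to 4.87). The ratio of short to long arm was 1.30 (1.15 to 1.48, exact conditional binomial test, two-sided p = 2.83e-05). The variance to mean ratio of counts in 5 Mb windows was 2.03 on the short arm and 1.13 on the long arm, where 1 is expected of Poisson counting. Widening the interval by the dispersion pooled over both arms, 1.55, gave 1.12 to 1.52. Leaving out each of 40 windows of 5 Mb in turn moved the ratio only between 1.26, without 80 to 85 Mb, and 1.33, without 105 to 110 Mb. With the own span of each arm, which leaves out the peak-free stretch at the centromere position, the ratio was 1.28 (1.13 to 1.45). Peaks occupied 5.85 kb per Mb of the short arm and 4.19 kb per Mb of the long arm.

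The chromosome as a whole held 9.70% of the peaks on 6.76% of the span covered by the list, at 5.07 peaks per Mb (4.76 to 5.39). Chromosomes 6 and 11, chosen for comparison because their densities lie near it, had 4.90 and 4.81 per Mb. The ratio of chromosome 3 to chromosome 6 was 1.03 (0.943 to 1.14, exact conditional binomial test, adjusted p = 0.48). The ratio to chromosome 11 was 1.05 (0.955 to 1.17, exact conditional binomial test, adjusted p = 0.44). Neither test passed the threshold of 0.05, but the choice by density favoured that outcome, and no conclusion is drawn from them. The ratio to all other chromosomes together was 1.48 (1.39 to 1.58, exact conditional binomial test, adjusted p = 1.02e-28). This p-value assumes 1 rate with Poisson counting over the other chromosomes, whose 5 Mb windows had a variance to mean ratio of 5.21. It takes no account of the spread between windows or chromosomes. The 3 p-values were adjusted together by the Benjamini-Hochberg method.

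**Figure D1:**
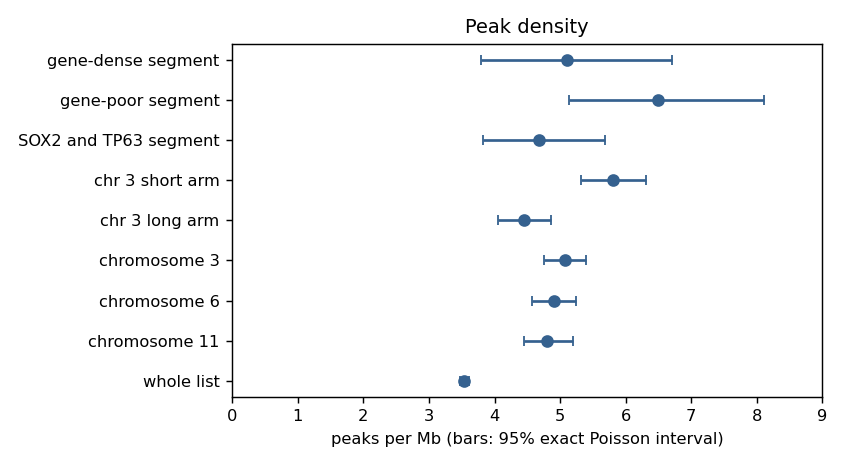
Peaks per Mb (x axis) for the whole list, 3 chromosomes, both arms of chromosome 3 and its 3 segments, with 95% exact Poisson intervals. The short arm lies above the long arm without overlap of the intervals, while the intervals of the 3 segments overlap each other.

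The gene-dense segment at 45 to 55 Mb had a peak density close to that of the rest of the chromosome. In RefSeq on GRCh38, the stretch from LARS2 to WNT5A, the genes near its borders, holds 184 protein-coding genes, among them BAP1 and PBRM1, tumour suppressors that act on chromatin. The list placed 51 peaks in the segment, or 5.10 per Mb (3.8 to 6.71), against 5.07 per Mb on the rest of the chromosome, a ratio of 1.01 (0.744 to 1.33). Against the rest of the short arm alone, the ratio was 0.866 (0.636 to 1.16).

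The gene-poor segment at 76 to 88 Mb carried more peaks per Mb than the gene-dense segment, although the interval of their ratio includes 1. From ROBO2 to HTR1F, RefSeq on GRCh38 lists 8 protein-coding genes, which include the axon guidance receptors ROBO1 and ROBO2 and the synaptic adhesion gene CADM2. There were 78 peaks in the segment, or 6.5 per Mb (5.14 to 8.11). The ratio to the gene-dense segment was 1.27 (0.884 to 1.85), and the ratio to the rest of the short arm was 1.14 (0.886 to 1.45). Against the rest of the chromosome the ratio was 1.31 (1.02 to 1.65), and its interval included 1 when widened by the dispersion over windows (0.979 to 1.74). Between these 2 segments, the point values of peak density thus did not follow gene number. As the interval of their ratio includes 1, the order of the densities is not settled.

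The segment at 168 to 190 Mb, home of the stem cell factor SOX2 and of TP63, an epithelial member of the p53 family, had a density close to that of the rest of the long arm. It held 103 peaks, or 4.68 per Mb (3.82 to 5.68), with a ratio of 1.07 (0.849 to 1.33) to the rest of the arm and 0.915 (0.739 to 1.12) to the rest of the chromosome. From MECOM, a zinc finger transcription factor gene, to TP63, RefSeq on GRCh38 lists 113 protein-coding genes. The ratio of the gene-poor segment to this segment was 1.39 (1.02 to 1.88, widened 0.962 to 2.0). For the gene-dense segment the ratio was 1.09 (0.763 to 1.54). The widened interval of the first and the interval of the second include 1. The segments were named with earlier results of these data known, and no p-value is given for them.

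Within the segments, the number of peaks varied from 1 Mb to the next. The variance to mean ratios of the 1 Mb windows were 1.33, 1.69 and 1.19 in order of position, where 1 is expected of Poisson counting. Whether this spread exceeds counting error was not tested. From 45 Mb on, the 10 successive windows of the gene-dense segment held 3, 6, 4, 4, 6, 5, 6, 5, 1 and 11 peaks. The single peak at 53 to 54 Mb was thus followed by 11 peaks at 54 to 55 Mb. From 76 Mb on, the 12 windows of the gene-poor segment held 3, 7, 3, 3, 7, 13, 7, 11, 7, 5, 9 and 3 peaks. Its surplus lay between 80 and 85 Mb, which carried 45 peaks, or 9.0 per Mb (6.56 to 12.0), while the piece from 76 to 80 Mb carried 16 peaks, or 4.0 per Mb (2.29 to 6.5). From 168 Mb on, the 22 windows of the distal segment held 8, 1, 1, 6, 4, 5, 4, 10, 3, 4, 7, 6, 1, 6, 5, 8, 5, 3, 4, 3, 3 and 6 peaks. The peak at 169 to 170 Mb and the one at 170 to 171 Mb stand on either side of the longest peak-free interval of the 3 segments, chr3:169628566-170590519, of 962 kb. Mean counts per 1 Mb window were 5.10 ± 2.60 (SD, 10 windows), 6.5 ± 3.32 (12 windows) and 4.68 ± 2.36 (22 windows), beside 5.01 ± 2.56 in the 153 windows outside the segments.

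**Figure D2:**
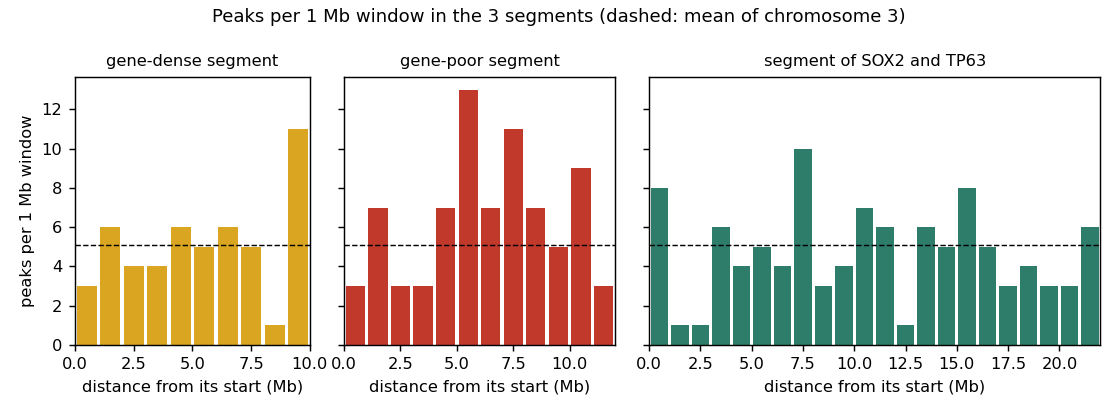
Peaks in successive 1 Mb windows (y axis) of the gene-dense, gene-poor and SOX2 and TP63 segments by distance from the start of each (Mb), with the mean of chromosome 3, 5.07, as a dashed line. The gene-poor segment rises to 13 peaks in its sixth window, and the distal segment reaches 10 once.

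In hg19, SOX2 is known to lie between 181 and 182 Mb and TP63 between 189 and 190 Mb, which was not checked against an annotation here. These windows were chosen after their values were seen, and each held 6 peaks. The peaks in the SOX2 window scored 50.16 to 66.27, where the score is 10 times the negative log10 of the p-value that MACS gives a peak and 50 is the lowest value the list allows. The highest of them was chr3:181692410-181693482, at 66.27, and chr3:181359595-181360392 scored 62.13. In the TP63 window the scores ran from 51.70 to 64.91, with the highest at chr3:189916413-189917508. All of these scores lie below 68.37, the upper quartile of the list, and 6 peaks compare with a median of 5 per 1 Mb window of the chromosome.

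Across the whole chromosome, 39 windows of 5 Mb held 25.4 ± 7.41 peaks (SD over windows), with extremes of 10 and 45. At least 30 peaks were found in 9 of them (23.1%), against 9.67% of all 5 Mb windows of the list, 11.8% on chromosome 6 and 19.2% on chromosome 11. The 18 windows of the short arm held 29.0 ± 7.67 peaks and the 20 of the long arm 22.9 ± 5.08, with 1 window across the centromere position. The fullest were 80 to 85 Mb with 45 peaks, 0 to 5 Mb with 44 and 70 to 75 Mb with 39, all on the short arm, and they ranked 1, 2 and 5 among all windows of the list. The emptiest were 90 to 95 Mb with 10 peaks, 110 to 115 Mb with 13 and 125 to 130 Mb with 14. The first of these lies across the centromere position and contains a peak-free interval of 3.36 Mb. Whether reads can map in that interval was not tested. Window position and count had a Spearman's rho of -0.32 over the chromosome, but 0.053 within the short arm and 0.072 within the long arm. Within each arm, position and count were thus nearly unrelated, and the neighbouring windows at 75 to 80 Mb and 5 to 10 Mb held only 22 and 23 peaks.

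**Figure D3:**
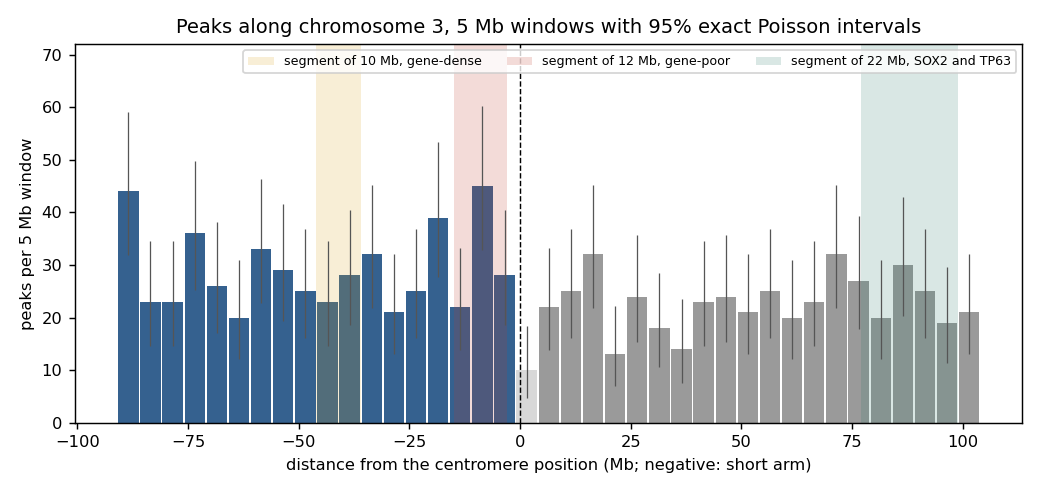
Peaks per 5 Mb window (y axis) against the distance from the centromere position (Mb), with 95% exact Poisson intervals, blue bars for the short arm, dark grey for the long arm and light grey for the window across the centromere. Shading marks the 3 segments, and 3 short-arm windows, with 45, 44 and 39 peaks, stand above all others of the chromosome.

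At a resolution of 1 Mb, 10 of 197 windows (5.08%) held at least 10 peaks, against 1.92% of windows in the list. Of these, 8 lay on the short arm and 2 on the long arm. No peak was found in 5 windows (2.54%), against 11.8% in the list, 1.76% on chromosome 6 and 2.24% on chromosome 11. All 5 lay on the long arm, 2 of them just past the centromere position. The window from 74 to 75 Mb held 18 peaks, more than any other in the list, where the next held 14. The windows from 81 to 82 Mb, with 13 peaks, and those from 16, 54 and 83 Mb on, with 11 each, followed it.

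The 18 peaks at 74 to 75 Mb included strong and weak peaks, 8 of them at or above the median score of the list and 4 at least 1200 bp wide. Their median score was 57.91, with a range from 50.08 to 98.27, and their median width was 1005.5 bp. They covered 20.1 kb and made up 46.2% of the peaks in their 5 Mb window, which without them held 21. A first group began at chr3:74001476-74002149, of score 69.82, with a neighbour at chr3:74006800-74007802, of score 63.98. Peaks at chr3:74034245-74035572 and chr3:74075383-74076257 followed, with scores of 84.78 and 52.15. A pair of broad peaks came next, chr3:74123496-74125381 with 93.12 and chr3:74237984-74239872 with 89.99, at widths of 1886 and 1889 bp. A tight group lay at chr3:74370887-74371909, chr3:74373721-74374731, chr3:74387665-74388651 and chr3:74405933-74406790, with scores of 57.37, 54.90, 58.45 and 73.76. The pair chr3:74515513-74516538 and chr3:74516958-74517915 lay 1.41 kb apart from midpoint to midpoint, and scored 55.46 and 87.93. Of the remaining 6 peaks, chr3:74766296-74768084 had the highest score of the window, 98.27. The other 5, chr3:74561826-74562576, chr3:74689068-74690155, chr3:74700186-74701193, chr3:74796786-74797728 and chr3:74830961-74831961, scored between 50.08 and 56.42.

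Neighbouring peaks were a median of 117 kb apart on the short arm (104 to 133) and 153 kb on the long arm (133 to 171), measured between midpoints. The medians were 101 kb in the gene-poor segment, 146 kb in the distal segment and 176 kb in the gene-dense segment. The longest interval without a peak, chr3:90368066-93728175, spanned the centromere position over 3.36 Mb. It ran from the last peak of the short arm, chr3:90366980-90368065 with a score of 55.56, to the first of the long arm, chr3:93728176-93729134 with 51.39. Next in length was chr3:128029558-130322223 on the long arm, of 2.29 Mb. Of the 8 intervals longer than 1 Mb, 5 lay within the long arm and 2 within the short arm. The outermost peaks of the chromosome were chr3:146338-147191, with a score of 51.75, and chr3:197959556-197960374, with 60.75.

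Peak scores differed little between the arms. The median was 58.31 on the short arm (57.41 to 59.23) and 57.92 on the long arm (57.20 to 59.60), and 58.83 on the other chromosomes. The gene-dense segment had a median of 61.64 (58.31 to 65.59), the gene-poor segment 58.38 (54.47 to 64.92) and the distal segment 57.40 (56.05 to 60.58), so that the intervals overlapped. Of all peaks of the chromosome, 26 (2.59%) scored at least 100, against 2.92% in the list. They divided into 15 on the short arm and 11 on the long arm. The gene-dense and gene-poor segments had 2 each, and the distal segment had 0 of 103 peaks. This allows a share of up to 2.91% by a limit of 3 counts and up to 3.6% by the Wilson interval. The first limit lies just under the 2.92% of the list and the second above it, so a lower share in this segment is not settled.

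The strongest peak of the chromosome, chr3:15628159-15629582, scored 125.39 over 1424 bp and ranked 46 in the list. It was followed by chr3:77592044-77593057 in the gene-poor segment with 121.97 and by chr3:51279323-51281062 in the gene-dense segment with 121.47. The strongest of the long arm was chr3:106485795-106486274, which reached 121.24 over only 480 bp. The rest of the 10 highest ran from 118.65 at chr3:43205989-43208115, through chr3:163119799-163121566 (116.25), chr3:59187075-59188368 (115.18), chr3:2052125-2054092 (114.48) and chr3:104745368-104745833 (112.11), to 111.98 at chr3:36265589-36266590. On the short arm there were 7 of these 10, and 3 on the long arm.

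In the gene-dense segment, chr3:46051080-46052227 (111.77) and chr3:49252844-49254591 (94.03) came next in score. In the gene-poor segment these were chr3:79187737-79188846 (105.79) and chr3:81713509-81714368 (96.58). The distal segment had its highest scores at chr3:183842725-183843781 (92.45), chr3:171498400-171499534 (90.11) and chr3:187089155-187090143 (85.64). Its strongest peak was therefore below the third highest in each of the other segments.

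Peaks of the short arm were wider than those of the long arm. The median width was 977 bp (959 to 991) on the short arm and 924.5 bp (905 to 937) on the long arm, beside 960 bp in the list. A width of at least 1200 bp was found in 85 short-arm peaks (16.1%, Wilson interval 13.2 to 19.5) and in 41 long-arm peaks (8.61%, 6.41 to 11.5), against 14.9% in the list. The order of the arms was the same among peaks at or above the median score of the list, with medians of 984.5 and 927 bp, and among those below it, with 970 and 919 bp. In blocks of 20 Mb, the medians ran from 967 to 984 bp up to 100 Mb and from 880 to 941 bp beyond it. The block from 80 to 100 Mb lies across the centromere position. Intervals of blocks on either side of 100 Mb overlapped, except between 60 to 80 Mb (950 to 1011) and 100 to 120 Mb (835 to 947). The segments followed their arms, at 980, 1000 and 915 bp in order of position. Peaks narrower than 700 bp made up 7.08% of the chromosome, against 7.94% in the list, and peaks of at least 2000 bp 0.897%, against 1.34%. The widest were chr3:195230350-195233065 (2716 bp), chr3:7343790-7346195 (2406 bp) and chr3:14839404-14841788 (2385 bp). The narrowest were chr3:81483353-81483792 (440 bp), chr3:104745368-104745833 (466 bp) and chr3:61517806-61518277 (472 bp).

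**Figure D4:**
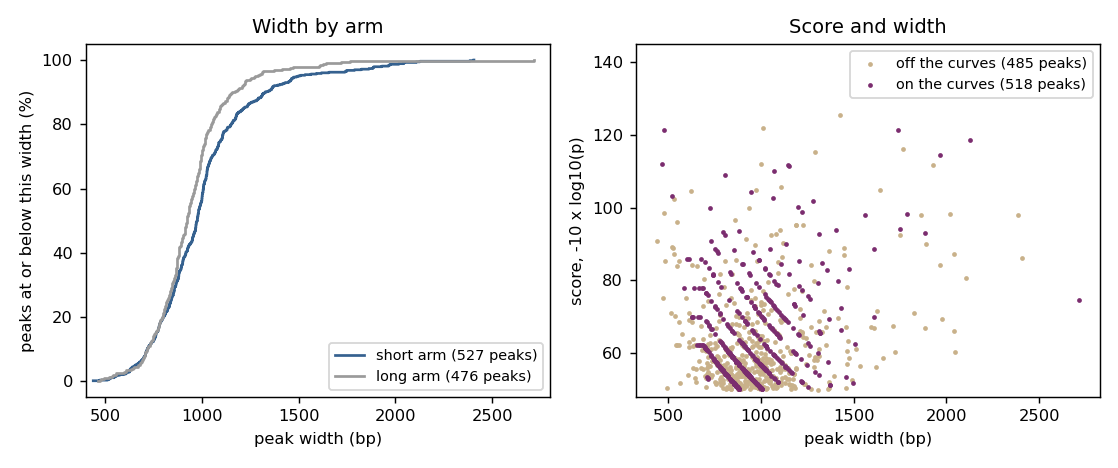
Left, share of peaks at or below each width (bp) for the short arm (527 peaks) and the long arm (476 peaks), where the curve of the long arm rises earlier. Right, score (10 times the negative log10 of p) against width (bp), with 1 point per peak, where the 518 peaks on the curves form falling lines and the 485 others lie between them.

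Plotted against width, many scores fell on a family of curves. Each curve is the Poisson chance of more than a whole number of reads, for a mean that grows with peak width at 1 rate. The rate was fitted on the other chromosomes alone and came to 3.73 reads per kb, with the mean held constant below a width of 692 bp. A peak was counted as on a curve where its score gave a whole number of reads within 0.01, a band that covers 2% of the range between whole numbers. On chromosome 3, which took no part in the fit, 518 of 1003 peaks (51.6%, Wilson interval 48.6 to 54.7) lay on the curves, against 53.7% in the list. The next band of equal width held 9 peaks. Shares were 53.9% on chromosome 6 and 53.3% on chromosome 11.

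The arms parted on this measure. On the short arm 199 of 527 peaks lay on the curves (37.8%, Wilson interval 33.7 to 42.0), and on the long arm 319 of 476 (67.0%, 62.7 to 71.1). Each of the 9 windows of 10 Mb from 0 to 90 Mb had a share between 28.3 and 47.5%. Each of the 10 windows from 100 Mb on had a share between 59.3 and 82.4%, and the window from 90 to 100 Mb, which lies across the centromere position, had 56.3%. The shares of the windows on either side therefore did not overlap. Some of their Wilson intervals did, as at 70 to 80 Mb (35.5 to 59.8%) and 160 to 170 Mb (46.6 to 70.9%).

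Peaks on and off the curves were distributed in opposite ways over the arms. Off the curves, the short arm had 328 peaks, or 3.61 per Mb (3.23 to 4.02), and the long arm 157, or 1.47 per Mb (1.25 to 1.72), a ratio of 2.46 (2.03 to 2.99). On the curves, the short arm had 2.19 per Mb (1.9 to 2.52) and the long arm 2.98 per Mb (2.66 to 3.33), a ratio of 0.734 (0.612 to 0.879). Neither ratio interval was widened by the spread over windows. The higher density of the short arm was thus found among the peaks off the curves, and the peaks on the curves were denser on the long arm. By the design of MACS, a peak scored against the rate of the whole genome would lie on such curves. The input reads were not used here, and their part in the difference between the arms was not tested.

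**Figure D5:**
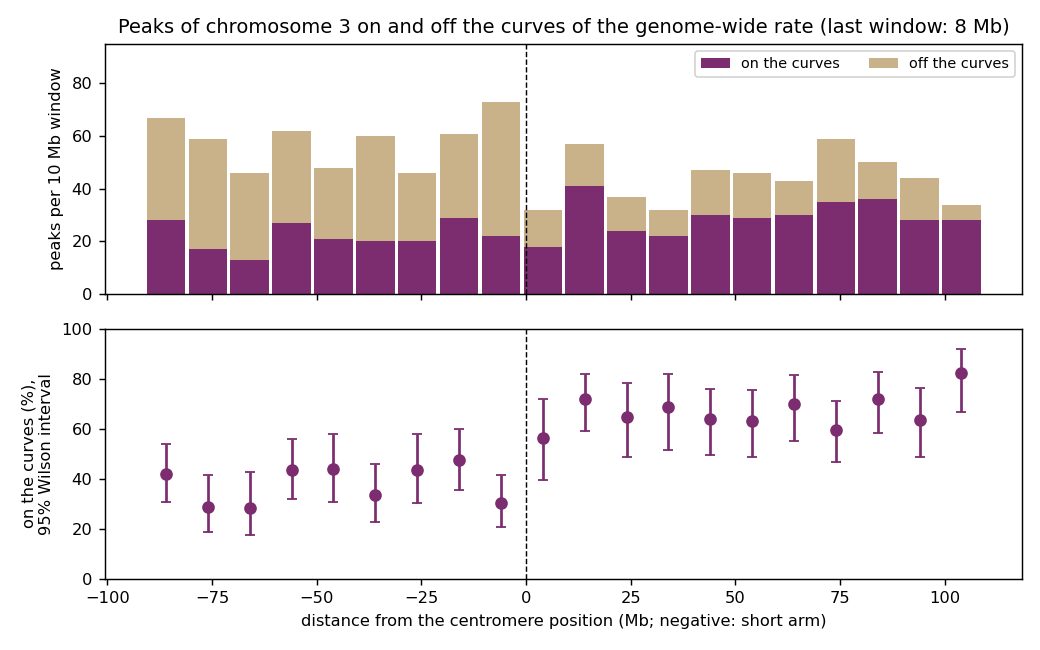
Top, peaks per 10 Mb window (y axis) on the curves of the genome-wide rate (purple) and off them (tan), by distance from the centromere position (Mb). Bottom, share on the curves (%) with 95% Wilson intervals, which lies between 28.3 and 47.5% in the short-arm windows and between 59.3 and 82.4% in the long-arm windows past the one at the centromere.

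On the same measure, the gene-poor segment had a lower share than the other 2 segments, whose intervals overlapped. The short arm, which holds the gene-poor and gene-dense segments, had a share of 37.8%, and the long arm 67.0%. On the curves were 21 of 78 peaks of the gene-poor segment (26.9%, Wilson interval 18.3 to 37.7), 29 of 51 of the gene-dense segment (56.9%, 43.3 to 69.5) and 66 of 103 of the distal segment (64.1%, 54.5 to 72.7). In the gene-poor segment, peaks off the curves reached 4.75 per Mb, 2.06 times the rest of the chromosome (1.54 to 2.72), while peaks on the curves reached 1.75 per Mb, 0.654 times the rest (0.401 to 1.01). Against the rest of the short arm alone, these ratios were 1.38 (1.02 to 1.84) off the curves and 0.775 (0.468 to 1.22) on them. The gene-dense segment had 0.581 times the rest of the arm off the curves (0.359 to 0.896) and 1.38 times on them (0.897 to 2.05). For the distal segment the ratios to the rest of the long arm were 1.19 (0.80 to 1.73) off the curves and 1.01 (0.756 to 1.33) on them. The intervals of these segment ratios cover counting error only and were not widened by the spread over windows. Over both arms, counts off the curves in 5 Mb windows had a variance to mean ratio of 4.47. Whether these segment ratios differ from 1 beyond that spread was not tested. At 80 to 85 Mb, the fullest 5 Mb window of the list, 8 of 45 peaks lay on the curves (17.8%, 9.29 to 31.3). At 0 to 5 Mb there were 19 of 44, and at 70 to 75 Mb 17 of 39. The window from 80 to 85 Mb lies inside the gene-poor segment. Its neighbours, which lie partly in the segment, had 12 peaks on and 10 off at 75 to 80 Mb, and 14 on and 14 off at 85 to 90 Mb. The low share of the gene-poor segment thus lay mainly between 80 and 85 Mb. The 18 peaks at 74 to 75 Mb included 7 on the curves. In the TP63 window 5 of the 6 peaks lay on the curves, all of them with 13 reads, and in the SOX2 window 3 of 6, with 13 to 15 reads.

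A peak on the curves also yields the number of reads behind its score. The median was 15 reads on the short arm, with a range from 12 to 34, and 14 on the long arm, with a range from 13 to 31. Among the 10 highest scores, 5 lay on the curves. The number of reads was 34 at chr3:43205989-43208115, 32 at chr3:2052125-2054092 and 31 at chr3:51279323-51281062. The narrow peaks chr3:106485795-106486274 and chr3:104745368-104745833 had scores of the same order with only 20 and 19 reads. Among peaks on the curves, the median width was 970 bp on the short arm (935 to 1001) and 919 bp on the long arm (895 to 935). Among peaks off them it was 980 bp (954 to 1000) and 937 bp (905 to 976), with intervals that overlapped.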

How the data were processed

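ChIP-seq of wild-type MDA-MB-231 cells gave 1 peak list, called by the authors with MACS from 1 ChIP and 1 input library. The labels name Bowtie2 2.1.0 and hg19, and the version of MACS is not given in the sources used here. The authors deposited a score for each peak, read here as 10 times the negative log10 of the p-value, since its lowest value, 50, equals the calling limit of 1e-05. The depth of the libraries is unknown, and there were no replicates. Labels alone gave the groups. The design text of the series describes other samples and was not used.

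Peak positions were midpoints, and the span ran from the first to the last peak. Densities have exact Poisson intervals, ratios exact conditional intervals, medians exact order-statistic intervals and shares Wilson intervals. The dispersion over 5 Mb windows (36 degrees of freedom) widened them as an alternative. The other alternatives were the peaks at or above the median score of the list, merging of peaks less than 1 kb apart, removal of empty intervals of over 3 Mb, moved borders and other windows.

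The rate and width limit of the score curves were fitted by a grid search over 9337 peaks of the other chromosomes with a score under 300. This measure was chosen after the plot of score and width had been seen. Functions were tested on simulated lists.

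Members, segments and lists were chosen with earlier results of these data known. Named peaks are the 10 highest in score, the 3 highest of each arm and segment, the 3 widest and 3 narrowest, those at the ends and the centromere position, and all of the fullest 1 Mb window. The planned gene and T-box motif results were not run, as no genome or annotation in hg19 was used here. Gene order and gene counts come from RefSeq on GRCh38. Python 3.11.15, numpy 2.4.6, scipy 1.17.1, pandas 2.3.3 and matplotlib 3.10.9 were used.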

Additional observations from a re-analysis of the deposited data

How the results depend on the processing

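In all, 45 alternative values were computed. The arm ratio ran from 1.28 with the own span of each arm to 1.31 among peaks at or above the median score of the list, but was 0.734 among the peaks on the curves alone. Among peaks at or above the median score, the ratio of chromosome 3 to chromosome 6 was 0.987 and to chromosome 11 0.994. The variance to mean ratio of the 5 Mb windows, 2.16, was 1.42 with windows moved by 2.5 Mb and 1.33 with windows of 1 Mb. The median width of 950 bp became 968 bp in peaks of 700 bp or wider, which follows from leaving out narrow peaks. The cause was not tested for the others. The ratio to the rest ran from 0.866 to 1.30 over the alternatives for the gene-dense segment and from 0.849 to 1.07 for the distal segment, below and above 1 in both, and stayed above 1 for the gene-poor segment (1.14 to 1.45). The interval of the gene-poor segment against the rest of the chromosome included 1 after merging (ratio 1.28, 0.998 to 1.62) and among peaks at or above the median score (1.30, 0.90 to 1.81). Tolerances of 0.005 and 0.02 gave shares on the curves of 37.0 and 39.1% on the short arm and 66.4 and 67.4% on the long arm. No paired analysis was possible because neither library has a replicate. With no replicates and unknown depth, the error of a single peak could not be given.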

Other observations

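Taken over both arms together, peaks off the curves were more unevenly spread over chromosome 3 than peaks on them. The 39 windows of 5 Mb held 13.1 ± 4.81 peaks on the curves (SD over windows, range 4 to 24) and 12.3 ± 7.42 off them (range 2 to 37). The variance to mean ratio was 1.77 on the curves and 4.47 off them. Both values pool the arms and so include the step between them, from 3.61 to 1.47 per Mb off the curves. The spread within each arm was not separated for these peaks.

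The arm difference in the share on the curves was also present among peaks of similar width. Between 800 and under 1000 bp, 80 of 192 short-arm peaks (41.7%, Wilson interval 34.9 to 48.7) and 168 of 236 long-arm peaks (71.2%, 65.1 to 76.6) lay on the curves. Among peaks at or above the median score of the list, the shares were 38.9% (33.1 to 45) on the short arm and 68.7% (62.4 to 74.4) on the long arm.

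Over the 23 chromosomes with at least 50 peaks, the share on the curves ran from 11.8% on chromosome 8 to 93% on chromosome X.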
